A study of Populus tremula x Populus alba with 10 samples.

Results

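In nuclei of hybrid poplar stems, 100 genes were picked out because their RNA was found together with that of 1 gene, PtXaAlbH.06G122800, called the anchor here. They are 100 of the 31823 genes in the nuclei matrices, and the choice rests on measured values of the same nuclei. Barcodes with at least 200 genes were kept, and a nucleus was anchor-positive when it held at least 1 unique molecular identifier (UMI, the tag that marks each captured RNA molecule) of the anchor. For each gene, UMIs were pooled per treatment and turned into CPM, the count of a gene scaled to 1000000 UMIs. The ratio was log2 of CPM plus 50 in anchor-positive nuclei over CPM plus 50 in the other nuclei, and the lower of the drought and control ratios counted. Members have at least 30 UMIs in anchor-positive nuclei, which 4366 genes had, and a ratio above that for each of 6 other anchors, which 820 of those had. The 100 of highest ratio among the 820 are the members, and the anchor, which chose the nuclei, is not counted among them.

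A poplar stem holds bark, phloem, the cambium that divides to widen the stem, developing and mature wood, and pith, and each of these tissues keeps its own set of active genes. Genes whose RNA recurs in the same nuclei can mark such a tissue or a state of its cells. Nuclear RNA is rich in recently made transcripts, whereas bulk RNA is mostly the cytoplasmic stock of the whole tissue. No names come with the gene IDs in the files, so the members stay IDs here, no role is given to any of them, and the nuclei are called only anchor-positive or anchor-negative.

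All plants were wild-type Populus tremula x alba, INRA clone 717 1B4, multiplied in vitro and potted in peat 6 weeks before treatment. In drought plants irrigation was withheld until the soil stood at 15% of field capacity, with 14 days of drought in all, and control plants were kept well watered near field capacity. Nuclei came from internode 15 of 1 plant per library, 2 drought and 2 control libraries, and were sorted by fluorescence, while the design text also names the neighbouring internode. Bulk RNA came from stem, with 3 drought and 3 control libraries described as biological replicates. All groups share the 1 clone, no label ties a bulk library to a plant used for nuclei, and p-values measure the spread between these libraries.

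The bulk drought libraries held 47900128, 53320324 and 48634078 counts, and the bulk controls 48103219, 49240301 and 57594846. The nuclei drought libraries held 1930997 and 1994615 UMIs in genes, and the nuclei controls 4346198 and 3633900. With at least 200 genes there were 3172 and 3739 drought nuclei and 4342 and 5697 control nuclei. Any pair of nuclei libraries shared between 18 and 56 barcode sequences, at most 1.33% of the smaller library. Bulk Drought 2 stood apart: the chi-square of its counts per degree of freedom was 131 against Drought 1 and 158 against Drought 3, which differed from each other by 10.1. Among nuclei libraries, Control 1 held few anchor-positive nuclei. Member calls in bulk and in whole nuclei libraries are also given without these libraries. Shares of nuclei, counts of genes whose treatments did not overlap, and counts for other gene lists are given with all libraries only.

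The anchor was seen in 169 of 3172 and 169 of 3739 drought nuclei, and in 32 of 4342 and 191 of 5697 control nuclei. These are 5.33% and 4.52% of drought nuclei, against 0.737% and 3.35% of control nuclei. The exact (Clopper-Pearson) 95% binomial intervals were 4.57% to 6.17% and 3.88% to 5.24% in drought libraries, against 0.505% to 1.04% and 2.90% to 3.85% in controls, and they cover counting error only. Both drought shares lay above both control shares, and the controls differed from each other more than the drought libraries did. The mean was 4.92% ± 0.571 under drought and 2.04% ± 1.85 in controls (SD, n = 2 each), and an exact permutation test, two-sided, had p = 0.333, the smallest value this design allows. Anchor-positive nuclei had median depths of 512 and 479 UMIs under drought and 1225.5 and 631 UMIs in controls, and the other nuclei 424 and 352 UMIs under drought and 741 and 509 UMIs in controls. With every nucleus thinned to 250 UMIs, the anchor was left in 3.28% and 2.79% of drought nuclei, against 0.347% and 1.85% of control nuclei. That step left out 217 and 479 drought nuclei and 16 and 122 control nuclei below this depth, and the order of the libraries stayed as before.

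The anchor also occurred in some nuclei chosen by the 6 other anchors of the rule. Among nuclei with PtXaAlbH.10G108800, 5.97% and 5.49% held it under drought, against 1.06% and 3.08% in controls, at median depths of 691.5 and 541 UMIs under drought and 1125 and 760 UMIs in controls. Over the 6 other anchors the share ran from 0% to 16.2% in Drought 1 and from 5.49% to 12.2% in Drought 2, and from 0% to 1.19% in Control 1 and from 0.870% to 9.38% in Control 2. The share over all nuclei lay within or below these ranges in every library. In Control 1 the anchor was seen in 0 of 216 nuclei with PtXaAlbH.16G095400, which allows a share of up to 1.39%. Part of these nuclei held at least 2 anchor UMIs, up to 8.13% of the Drought 2 nuclei with PtXaAlbH.03G169600. The labels name no nuclei that should lack the anchor, so a share with at least 1 UMI is not read as a share of nuclei that express it. Of the anchor-positive nuclei, 54 and 63 under drought and 11 and 48 in controls held at least 2 anchor UMIs, and 17.2% and 20.7% under drought and 18.8% and 26.2% in controls also held another anchor.

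Member UMIs made up 3.33% and 3.20% of all UMIs in anchor-positive drought nuclei and 1.79% and 2.00% in anchor-positive control nuclei. In the other nuclei they made up 0.665% and 0.678% under drought, against 0.449% and 0.557% in controls. Since these nuclei chose the members, the step between positive and other nuclei is a description. It was larger where the anchor itself was more abundant. Nuclei with at least 2 anchor UMIs had a member share of 5.71% and 5.75% under drought and 4.79% and 4.57% in controls. Those with 1 anchor UMI had 2.02% and 1.53% under drought and 0.569% and 1.22% in controls. Nuclei with 1 anchor UMI in Control 1 thus lay near the other nuclei of that library.

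The anchor was most frequent in nuclei that held many member UMIs. The rule favours this, since the members were chosen for their level in anchor-positive nuclei of these libraries. The values are a description. Each nucleus was thinned to 250 UMIs, and the anchor was then looked for at full depth. Among nuclei with 12 or more member UMIs it was found in 72.3% and 70.9% under drought and in 77.8% and 72.2% in controls, in groups of 83 and 79 drought nuclei and 9 and 54 control nuclei. Among nuclei with 0 to 2 member UMIs it was found in 2.72% and 2.41% under drought and in 0.428% and 2.19% in controls. At the upper end Control 1 rests on 9 nuclei. Nuclei with at least 10 member UMIs were 3.35% and 2.76% of drought nuclei and 0.370% and 1.20% of control nuclei. That limit was set after seeing the data and is a point on a range, with 7 and 9 drought nuclei and 5 and 12 control nuclei at 1 UMI below it.

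**Figure D1:**
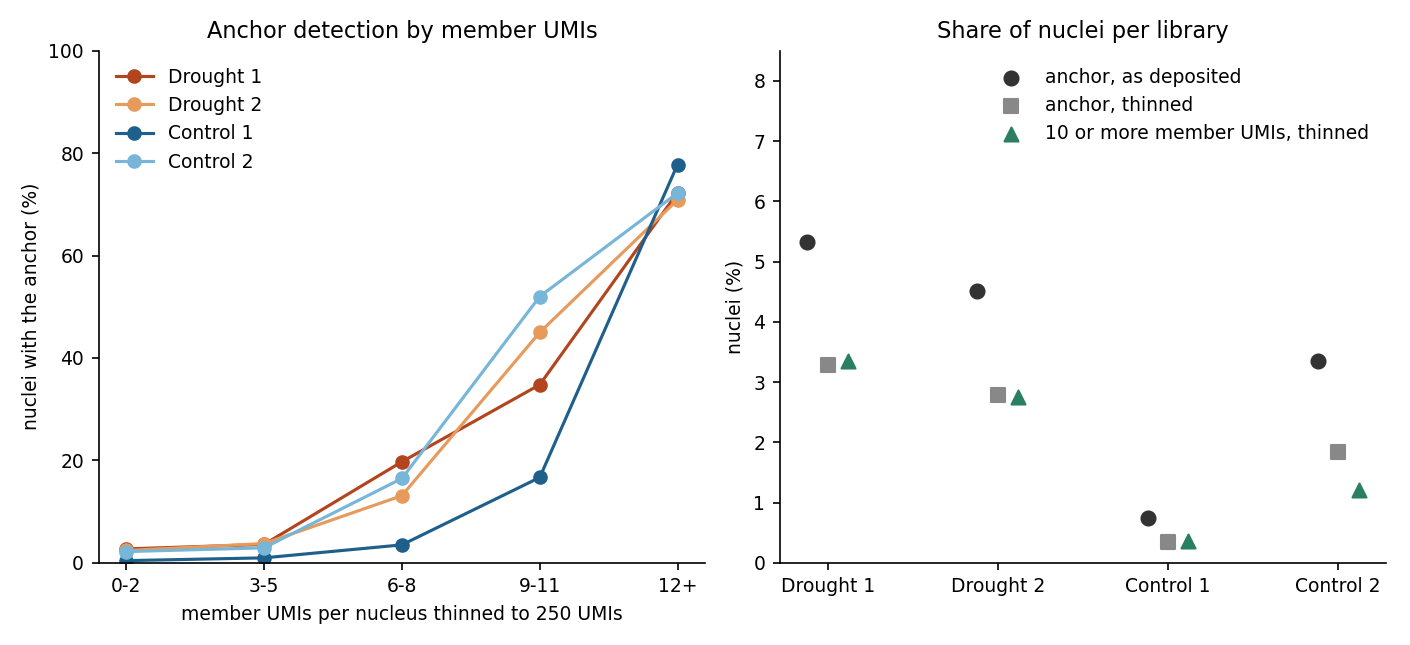
Left, percentage of nuclei with at least 1 anchor UMI at full depth (y) by the number of member UMIs after thinning each nucleus to 250 UMIs (x), 1 line per library. Right, percentage of nuclei per library with the anchor as deposited, with the anchor after thinning, and with 10 or more member UMIs after thinning. At 12 or more member UMIs the 4 libraries lie between 70.9% and 77.8%, and in the right panel both drought libraries lie above both controls on each measure.

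Member UMIs were also counted in nuclei where the anchor was not seen. Among anchor-negative nuclei thinned to 250 UMIs, members of odd rank were set against members of even rank. Nuclei with 6 or more UMIs of the odd ranks held on average 9.17 and 7.96 UMIs of the even ranks under drought, and 2.67 and 5.50 in controls. Nuclei with 0 UMIs of the odd ranks held on average 0.842 and 0.898 UMIs of the even ranks under drought, and 0.571 and 0.696 in controls. The first kind was rare, with 24 and 27 nuclei under drought and 12 and 20 in controls. In each library some anchor-negative nuclei thus held 6 or more UMIs of the odd ranks. These are UMIs and not distinct members, so few genes may supply many of them. Both lists were chosen on nuclei of the same libraries, and no other gene set was put beside them. Neighbouring IDs such as PtXaAlbH.03G045800 (rank 12) and PtXaAlbH.03G045700 (rank 17) also fell in opposite lists. The values are therefore a description.

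The ratios that chose the members had a highest value of 2.87, a median of 1.02 and a lowest value of 0.55 on the log2 scale, and 12 members had a ratio of at least 2. The median was 1.42 in drought nuclei and 1.08 in control nuclei, and for 78 members the control ratio was the lower. By library the median was 1.41 and 1.35 under drought and 1.05 and 1.03 in controls, and 98 members had a ratio above 0 in all 4 libraries. Members had between 30 and 562 UMIs in anchor-positive nuclei, with a median of 75.5, so many ratios rest on few molecules. The last members inside the rule were PtXaAlbH.10G170900, PtXaAlbH.01G350700 and PtXaAlbH.12G017700, at ratios of 0.56, 0.55 and 0.55. The first genes outside it were PtXaAlbH.19G066000, PtXaAlbH.17G083000 and PtXaAlbH.08G156400, at ratios of 0.54, 0.53 and 0.53, so the list has no sharp edge. For 53 members the next highest ratio was that for PtXaAlbH.03G169600. The margin over the next anchor had a median of 0.79 and was below 0.1 for 8 members.

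**Figure D2:**
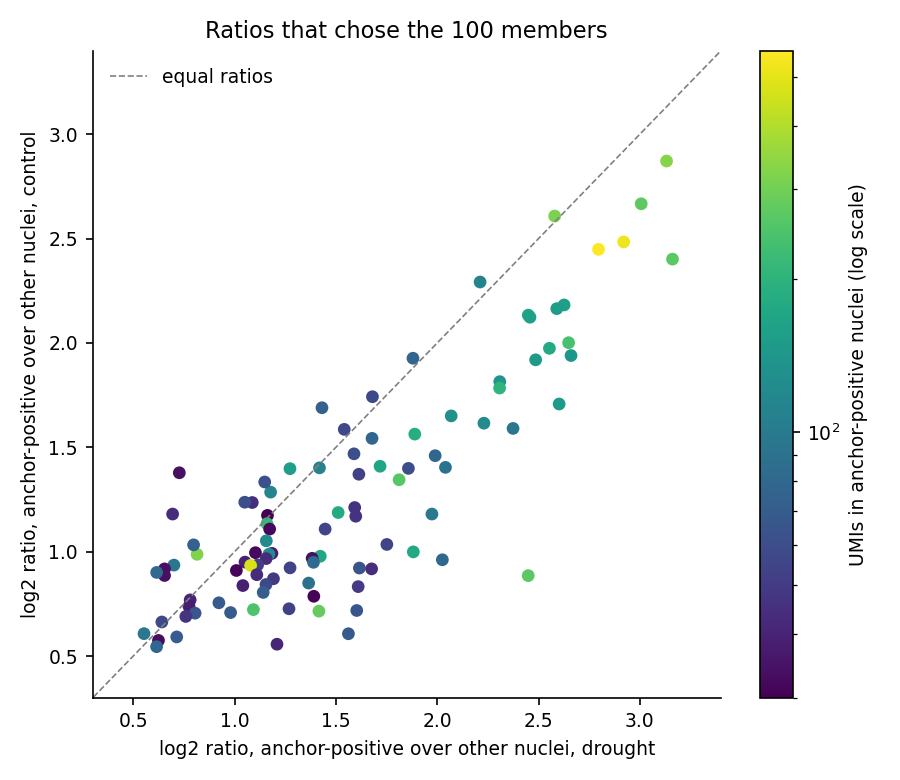
Each point is 1 of the 100 members, with its log2 ratio of CPM plus 50 in anchor-positive over other nuclei under drought (x) and in controls (y), coloured by its UMIs in anchor-positive nuclei of both treatments. These are the values that chose the members, and for 78 of them the control ratio is the lower.

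PtXaAlbH.18G038900 had the highest ratio. In anchor-positive nuclei it had 998 and 1105 CPM under drought against 434 and 425 CPM in controls, and in the other nuclei it had 89.4 and 59.8 CPM under drought against 3.98 and 29.1 CPM in controls. It was seen in 33.1% and 29.0% of anchor-positive drought nuclei and in 28.1% and 21.5% of anchor-positive control nuclei, so even the leading member was missed in most of them at this depth. The next by ratio, PtXaAlbH.02G015700, had 900.5 and 795 CPM under drought against 451 and 324 CPM in controls in anchor-positive nuclei and 68.3 and 55.8 CPM under drought against 3.51 and 27.6 CPM in controls in the others. PtXaAlbH.06G143500 had 819 and 1037 CPM under drought against 401 and 526 CPM in controls in anchor-positive nuclei. PtXaAlbH.13G067400 had 933 and 892 CPM under drought against 317 and 266 CPM in controls in anchor-positive nuclei. For these 4 genes the drought libraries lay above the control libraries in anchor-positive and in other nuclei alike. PtXaAlbH.10G051600, with 308 and 233 CPM under drought against 334 and 184 CPM in controls in anchor-positive nuclei, overlapped between treatments. So did PtXaAlbH.07G110800, with 495 and 329.5 CPM under drought against 384 and 298 CPM in controls.

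**Figure D3:**
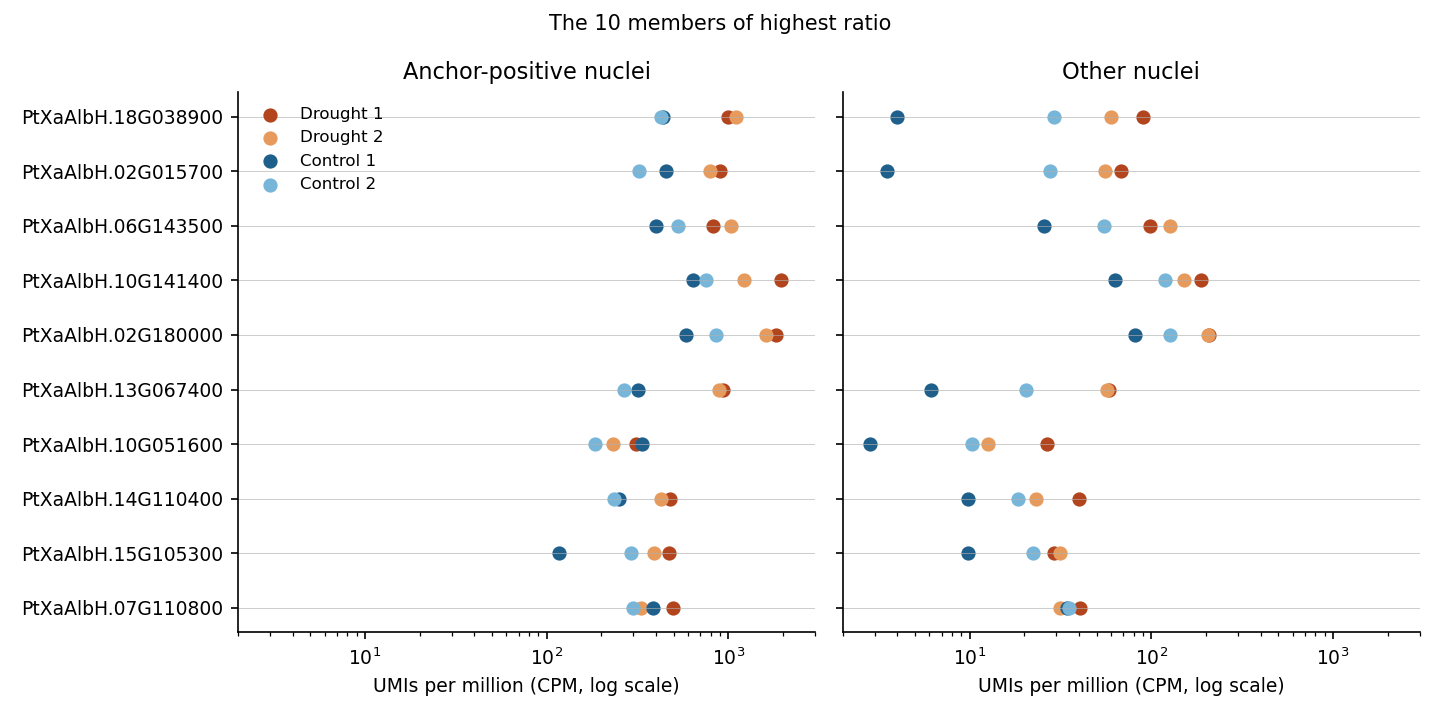
CPM on a log axis of the 10 members of highest ratio in anchor-positive nuclei (left) and other nuclei (right), 1 point per library. In anchor-positive nuclei PtXaAlbH.18G038900 sits at 998 and 1105 CPM in the drought libraries and at 434 and 425 CPM in the controls, and the points of PtXaAlbH.10G051600 and PtXaAlbH.07G110800 overlap between treatments.

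Drought and control were then compared over whole nuclei libraries, with the UMIs of all barcodes summed. These sums include barcodes below the minimum number of genes, which came mostly from the drought libraries. The drought libraries held 4203 and 6066 barcodes, of which 3172 and 3739 reached the minimum. The control libraries held 4439 and 5698 barcodes, of which 4342 and 5697 reached it. The part of the low barcodes in the calls is not given here. In this comparison 26 members were higher and 1 was lower under drought at a false discovery rate (FDR) below 0.05, by edgeR's quasi-likelihood test of 2 against 2 libraries with Benjamini-Hochberg adjustment over all 20768 genes tested. All 100 members passed the filter on low counts. Of all genes tested, 3.63% were higher and 5.21% lower, 8.84% in all. The median log2 fold change was 0.61 over members and 0.01 over all genes tested. Both drought libraries lay above both controls in CPM for 63 members, as they did for 29.5% of all genes, and below both for 3 members, as for 25.5% of all genes. With 1 nuclei library left out, a group of 1 library is set against 2, and the lone library is assumed to vary like the other group. The share of all genes called in such fits is not given here, so only the calls that were kept are listed. Of the 26, 13 were kept without Drought 1, 11 without Drought 2, 20 without Control 1 and 24 without Control 2. The rule compared nuclei within each treatment, but it counted its minimum of 30 UMIs over both treatments together, and anchor-positive nuclei were more frequent in the drought libraries. More nuclei of a kind and more RNA per nucleus cannot be told apart in these sums.

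Of the 10 members of highest ratio, 7 were higher under drought in whole nuclei libraries, and the other 3 had log2 fold changes between 0.52 and 1.42. PtXaAlbH.13G067400 had 231 and 217 UMIs under drought against 46 and 113 UMIs in controls, which is 119.6 and 109 CPM under drought against 10.6 and 31.1 CPM in controls (log2 fold change 2.44, SE 0.38, adjusted p 0.00745 with edgeR). In the fits of 1 library against 2 its log2 fold change ran from 1.84 to 3.38, with an adjusted p of at most 0.0247 in edgeR. PtXaAlbH.18G038900 had 289 and 260 UMIs under drought against 43 and 168 UMIs in controls, which is 149.7 and 130.4 CPM under drought against 9.89 and 46.2 CPM in controls (log2 fold change 2.31, SE 0.50, adjusted p 0.0216 with edgeR). It lost its call without Drought 1 or without Drought 2, with an adjusted p of up to 0.0629 in edgeR. In both genes Control 1 was the lowest library and Control 2 lay between it and the drought libraries. PtXaAlbH.02G015700 had 124 and 94.8 CPM under drought against 9.66 and 40.5 CPM in controls (log2 fold change 2.11, SE 0.48, adjusted p 0.0252 with edgeR), and lost its call in the same fits, at up to 0.0854. PtXaAlbH.06G143500 had 144 and 187 CPM under drought against 31.1 and 75.4 CPM in controls (log2 fold change 1.62, SE 0.34, adjusted p 0.021 with edgeR), and lost its call without Drought 2, at 0.0871. PtXaAlbH.10G141400, PtXaAlbH.02G180000 and PtXaAlbH.14G110400, at log2 fold changes of 1.25, 1.28 and 1.52, lost theirs without Drought 1.

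The largest rises among members lay further down the list. PtXaAlbH.14G041000, ranked 93, had 45.6 and 190.0 CPM under drought against 18.6 and 16.0 CPM in controls (log2 fold change 2.73, SE 0.53, adjusted p 0.0149 with edgeR). Drought 2 was far above the other libraries, and the log2 fold change was 1.35 without it. In nuclei without the anchor this gene had 44.1 and 179 CPM under drought against 18.3 and 14.1 CPM in controls, so Drought 2 was also highest there. PtXaAlbH.05G062300, ranked 23, had 44.5 and 28.1 CPM under drought against 4.37 and 8.26 CPM in controls (log2 fold change 2.50, SE 0.38, adjusted p 0.00693 with edgeR). In the fits of 1 library against 2 its log2 fold change ran from 2.10 to 2.99. The 1 member that fell was PtXaAlbH.16G034600, with 98.9 and 151 CPM under drought against 254 and 269 CPM in controls (log2 fold change -1.10, SE 0.22, adjusted p 0.018 with edgeR). Without Drought 1 it was no longer called, at an adjusted p of 0.0657 in edgeR. Among nuclei without the anchor it was seen in 2.76% and 3.87% under drought and in 13.4% and 10.3% in controls. Such shares also depend on depth, with medians of 424 and 352 UMIs in these nuclei under drought and 741 and 509 UMIs in controls.

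The most abundant members in nuclei were PtXaAlbH.15G014000, PtXaAlbH.19G020700 and PtXaAlbH.02G125300. PtXaAlbH.15G014000 had 620.4 and 629.7 CPM under drought against 389 and 457 CPM in controls and was not called (log2 fold change 0.53, SE 0.18, adjusted p 0.104 with edgeR). PtXaAlbH.19G020700 had 494 and 561 CPM under drought against 282 and 205 CPM in controls and was called higher (log2 fold change 1.08, SE 0.21, adjusted p 0.015 with edgeR), though not without Drought 2, at 0.0605. PtXaAlbH.02G125300 had 279 and 287 CPM under drought against 266 and 327 CPM in controls, with overlap between treatments (log2 fold change -0.10, SE 0.19, adjusted p 0.795 with edgeR). High abundance in nuclei thus went with a call for 1 of these 3 members.

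The anchor itself had 166 and 197 CPM in drought nuclei libraries, against 14.7 and 83.7 CPM in control nuclei libraries. Of its 321 and 392 UMIs under drought, 300 and 307 lay in barcodes that reached the minimum number of genes. In controls it was 63 of 64 and 304 of 304 UMIs. The drought libraries lay above both controls, but the fold change, 1.87 on the log2 scale (SE 0.55, adjusted p 0.0653 with edgeR), did not pass. It was 1.09 without Control 1 and 3.57 without Control 2, and passed in both of those fits. Without Drought 1 or Drought 2 it did not pass, at an adjusted p of up to 0.177 in edgeR.

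Within anchor-positive nuclei alone, 0 members were called between treatments with edgeR on sums of 2 against 2 libraries, out of the 91 that passed the filter on low counts. At an unadjusted p below 0.05 there were 22, and DESeq2 and limma voom called 0 as well, while edgeR called 3 with no filter on low counts and 6 with the replicate number as a block. Of all 3314 genes tested in the main fit, 0.453% were called. That share is not given here for the alternative fits, so their counts do not set members against all genes. In fits with 1 library left out, the few members called were all higher under drought. The share of all genes called in those fits is not given here. In CPM, both drought libraries lay above both controls for 51 of the 91 members tested and below both for 2, as they did for 21.7% and 21.4% of the genes tested. Over all 100 members it was 54 and 3. The members were chosen on their UMIs in these same nuclei and most genes tested were not, so these shares are a description. PtXaAlbH.06G110100, picked out after its values were seen, had the lowest adjusted p of the members, with 722 and 1269.7 CPM under drought against 200.3 and 241 CPM in controls (log2 fold change 2.15, SE 0.47, adjusted p 0.0703 with edgeR). Its drought libraries lay above both controls. Nuclei with 1 anchor UMI, whose member share was lower in controls than under drought, were part of these sums, and their part in the result was not tested. With at least 2 anchor UMIs required, 66 members could be tested and 0 were called.

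Among anchor-negative nuclei, 13 of the 99 members tested were higher and 1 was lower under drought (edgeR, FDR below 0.05), where 2.71% of 20465 genes were higher and 4.01% lower, 6.72% in all. In CPM, both drought libraries lay above both controls for 52 members, as for 28.8% of all genes, and below both for 11 members, as for 25.3%. The rule also used the CPM of these nuclei, so these shares too are a description. All 13 rises were also found in whole libraries, which hold the same nuclei, and the 1 that was lower was again PtXaAlbH.16G034600. PtXaAlbH.13G067400 had 58.4 and 57.2 CPM under drought against 6.09 and 20.4 CPM in controls in these nuclei (log2 fold change 2.12, SE 0.44, adjusted p 0.0262 with edgeR), and lost its call without either drought library, at up to 0.0680. PtXaAlbH.05G062300 had 22.4 and 16.0 CPM under drought against 2.81 and 3.74 CPM in controls (log2 fold change 2.51, SE 0.43, adjusted p 0.0155 with edgeR), and lost its call without Drought 1, at 0.0555. In the fits with 1 library left out, most of the 13 rises lost their call without Drought 1, Drought 2 or Control 1. Some of them also lost it without Control 2. Nuclei rich in member UMIs but without an anchor UMI belong to this class.

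In bulk RNA, which took no part in the choice, 31 members were higher and 8 lower under drought (edgeR quasi-likelihood test of 3 against 3 libraries, FDR below 0.05 over 26448 genes, all 100 members tested). Of all genes tested, 27.1% were higher and 27.1% lower, 54.2% in all, so the share of rises among members was near the background and that of falls below it. The median log2 fold change was 0.27 over members and 0.01 over all genes. All drought libraries lay above all controls for 28 members, as for 25.9% of all genes, and below them for 11 members, as for 38.9% of all genes. In bulk tissue, fewer cells of a type and less RNA per cell cannot be told apart.

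Bulk Drought 2 stood above the other drought libraries in most members. It was the highest of the 6 libraries for 67 members, against 13.5% of all genes tested, and lay above both other drought libraries for 89 members, against 48.8% of all genes. Its median log2 ratio over the mean of Drought 1 and Drought 3 was 0.71 in members and 0.05 in all genes. Relative to the mean of the controls, on the scale of log2 of CPM plus 1, the median member stood at 0.61 in Drought 2, and at -0.17 in Drought 1 and -0.27 in Drought 3. The same medians over all genes tested were -0.08, -0.11 and -0.12. In Drought 2, 82 members lay above the mean of the controls, and in Drought 1 and Drought 3 it was 39 and 38, so members stood on both sides in each.

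Without bulk Drought 2, 32 members were higher and 34 lower, where 32.8% and 33.6% of all genes were called. The median log2 fold change was then -0.11 over members, and the 31 rises and 8 falls of the full comparison were all kept. Without Control 1, 22 of the 31 rises and 3 of the 8 falls were kept. The summed level of the members was 16968, 24296 and 15972 CPM under drought, against 12218, 11877 and 13562 CPM in controls. Without its most abundant member, PtXaAlbH.06G110100, the sum was 12738, 19649 and 12099.9 CPM under drought, against 11467, 11103 and 12737 CPM in controls. Drought 1 was then level with the highest control, Drought 3 lay among the controls, and Drought 2 stayed above all of them.

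**Figure D4:**
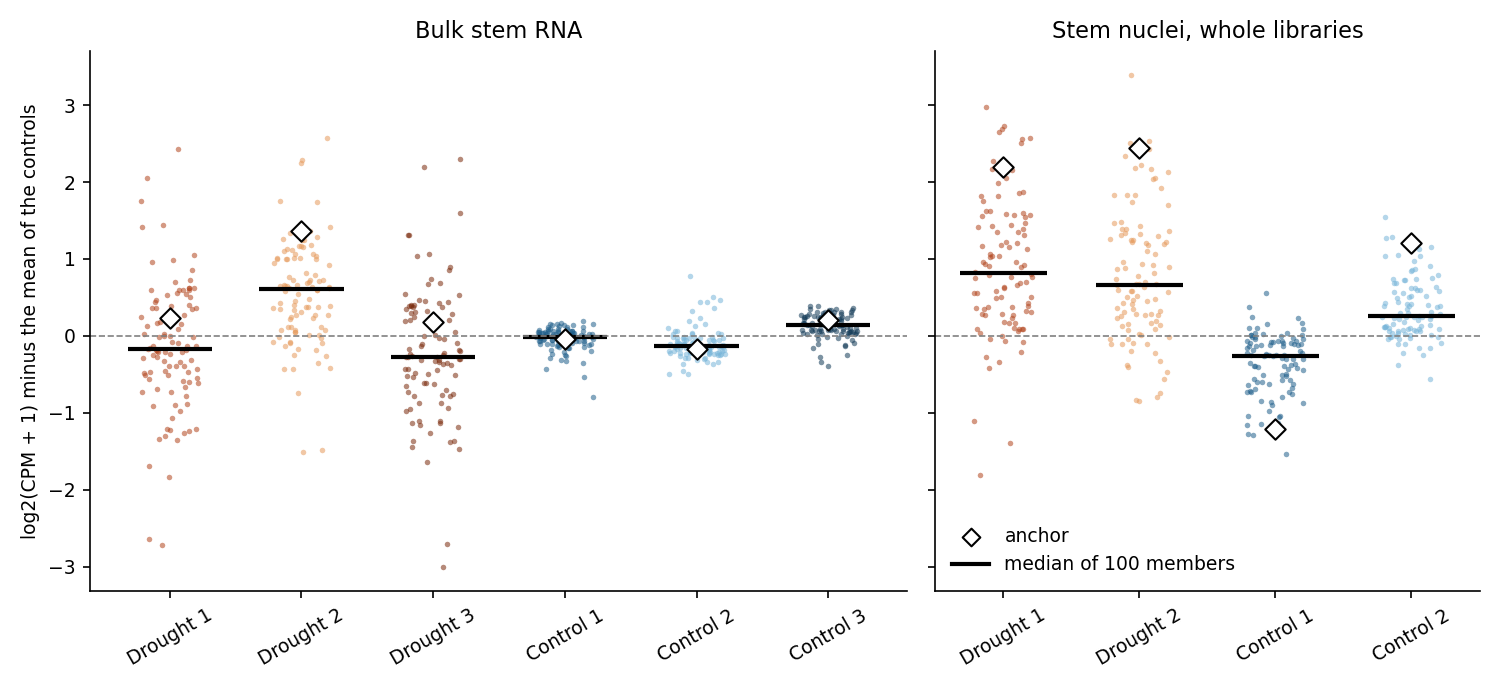
Each point is 1 member's log2(CPM + 1) minus its mean over the controls of the same assay, by library, in bulk RNA (left) and whole nuclei libraries (right). Black bars are medians over the 100 members and open diamonds are the anchor. The bulk median is 0.61 in Drought 2 and below 0 in Drought 1 and Drought 3, and both nuclei drought medians, 0.82 and 0.67, lie above the control medians of -0.26 and 0.26.

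The anchor was also highest in Drought 2 in bulk, with 422, 925 and 404 CPM under drought, against 348, 318 and 413 CPM in controls. Drought 3 lay within the range of the controls, Drought 1 just above it and Drought 2 far above every other library. The mean was 584 ± 296 CPM under drought and 359 ± 48.6 CPM in controls (SD, n = 3 each). The fold change, 0.82 on the log2 scale (SE 0.32, adjusted p 0.0696 with edgeR), did not pass, while it passed at 0.33 without Drought 2 (adjusted p 0.0338 with edgeR) and at 1.02 without Drought 3 (adjusted p 0.0464). Of the 10 members of highest ratio, 9 were highest in Drought 2. PtXaAlbH.18G038900 had 167, 508 and 145 CPM under drought against 188, 171 and 234 CPM in controls and was not called (log2 fold change 0.58, SE 0.47, adjusted p 0.324 with edgeR). PtXaAlbH.06G143500 had 56.4, 140.0 and 48.5 CPM under drought against 84.3, 68.5 and 102 CPM in controls (log2 fold change 0.06, SE 0.40, adjusted p 0.913 with edgeR), and its log2 fold change was -0.57 without Drought 2. For both genes Drought 1 and Drought 3 lay below all controls while Drought 2 lay above them.

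Some members rose in every bulk drought library. PtXaAlbH.06G110100, ranked 68, had 4229, 4646 and 3872 CPM under drought against 750.2, 775 and 826 CPM in controls, the largest rise and the highest bulk level among members (log2 fold change 2.56, SE 0.13, adjusted p 0.000105 with edgeR). With any 1 library left out its log2 fold change stayed between 2.50 and 2.62. PtXaAlbH.15G105300, ranked 9, had 151, 203 and 138 CPM under drought against 74.4, 67.4 and 86.2 CPM in controls (log2 fold change 1.23, SE 0.17, adjusted p 0.00152 with edgeR). PtXaAlbH.01G350700, at the edge of the list, had 451, 557 and 409.9 CPM under drought against 139.9, 236 and 136 CPM in controls (log2 fold change 1.59, SE 0.24, adjusted p 0.0021 with edgeR). For these 3 genes the treatments did not overlap and the call was kept with each library left out. PtXaAlbH.02G011400 had 1115, 354 and 1238 CPM under drought against 309, 212 and 297 CPM in controls (log2 fold change 1.86, SE 0.46, adjusted p 0.0131 with edgeR). Here Drought 2 was the drought library nearest to the controls, and the call was lost without Control 2, at 0.0561. PtXaAlbH.15G014000 had 780.2, 1011 and 678 CPM under drought against 683, 562 and 741 CPM in controls and was not called (log2 fold change 0.44, SE 0.18, adjusted p 0.0745 with edgeR).

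The next largest rise in bulk, that of PtXaAlbH.07G110900, rested on low levels and on Drought 2. It had 1.82, 8.44 and 1.71 CPM under drought against 0.852, 0.711 and 1.46 CPM in controls (log2 fold change 2.09, SE 0.69, adjusted p 0.0393 with edgeR). Its log2 fold change was 0.92 without Drought 2, and its call was lost without any 1 of the controls, at up to 0.123. The largest falls were those of PtXaAlbH.02G152700 and PtXaAlbH.02G152800, whose IDs follow each other. PtXaAlbH.02G152700 had 15.9, 39.0 and 13.0 CPM under drought against 118, 99.3 and 116 CPM in controls (log2 fold change -2.17, SE 0.40, adjusted p 0.00448 with edgeR). PtXaAlbH.02G152800 had 9.21, 21.3 and 8.78 CPM under drought against 65.3, 53.4 and 70.3 CPM in controls (log2 fold change -2.15, SE 0.35, adjusted p 0.00288 with edgeR). Both were below the controls in every drought library, kept their calls with any 1 library left out, and had their highest drought value in Drought 2. In whole nuclei libraries neither was called, with log2 fold changes of 0.10 and 0.59.

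The assays shared few of the members they called higher. Of the 26 members higher in nuclei, 4 were also higher in bulk and 22 were not called there. Of the 31 higher in bulk, 27 were not called in nuclei, and all 8 that were lower in bulk were not called in nuclei. The shared rises, PtXaAlbH.02G015700, PtXaAlbH.02G048300, PtXaAlbH.02G012900 and PtXaAlbH.05G011400, were 15.4% of those in nuclei and 12.9% of those in bulk, and the last 3 are named after their values were seen. Over the 20588 genes tested in both assays, 485 were higher in both, which is 64.9% of those higher in nuclei and 8.57% of those higher in bulk. The members' share of the nuclei rises was thus below that of all genes, and their share of the bulk rises above it, with no test of either difference. The number of members called in opposite directions was 0. A call in 1 assay alone does not show that the drought effect differed, so the difference itself was tested in 1 edgeR model of all 10 libraries with 1 spread per gene. It differed for 3 members, where 7.21% of 27746 genes did, 2.34% more positive in nuclei and 4.87% more negative. Among the members PtXaAlbH.02G152800 was more positive in nuclei, and PtXaAlbH.06G110100 and PtXaAlbH.16G034600 were more negative. Without bulk Drought 2 it differed for 45 members, 40 of them more positive in nuclei and 5 more negative, where 10.4% of all genes were more positive and 12.4% more negative. The count was 6 without nuclei Drought 2, at most 1 without nuclei Control 1 or any 1 other bulk library, and 0 without bulk Control 1 or bulk Control 3.

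**Figure D5:**
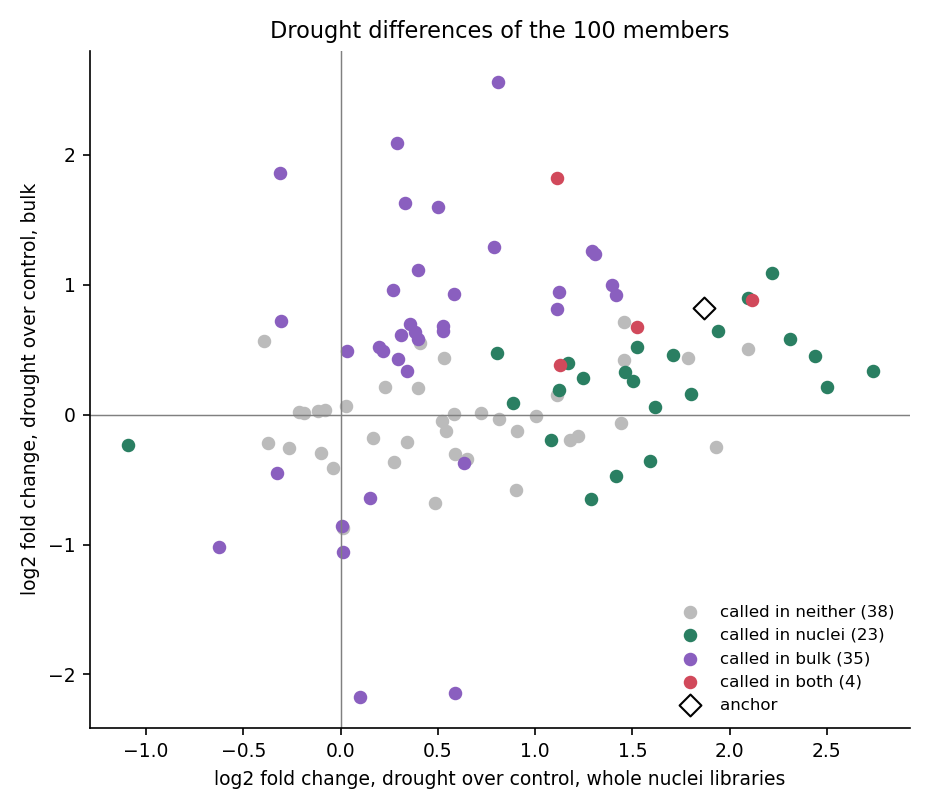
Log2 fold change of drought over control for the 100 members in whole nuclei libraries (x) and in bulk RNA (y), coloured by where the member was called at an FDR below 0.05. In all, 23 members were called in nuclei alone, 35 in bulk alone and 4 in both, against 1.93%, 50.3% and 6.79% of the 20588 genes tested in both assays.

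Lists made by the same rule for PtXaAlbH.16G095400 and PtXaAlbH.10G108800 had other counts in the same libraries. The rule's remaining anchors were not compared in this way, among them PtXaAlbH.03G169600, the next anchor for 53 members. Of the 100 genes found with PtXaAlbH.16G095400, 0 were higher and 98 lower in bulk, and 0 were higher and 78 lower in whole nuclei libraries (edgeR, FDR below 0.05). Of the 100 found with PtXaAlbH.10G108800, 4 were higher and 84 lower in bulk, and 0 were higher and 84 lower in nuclei. The median log2 fold change in nuclei was 0.61 for the members, -1.21 for the genes of PtXaAlbH.16G095400 and -1.12 for those of PtXaAlbH.10G108800. Bulk Drought 2 lay above both other drought libraries for 89 members, for 97 genes of PtXaAlbH.16G095400 and for 62 genes of PtXaAlbH.10G108800. The median log2 ratio of Drought 2 over the mean of Drought 1 and Drought 3 was 0.71, 0.92 and 0.15 in these lists. An excess of Drought 2 over the other drought libraries was thus not particular to the members. Drought 2 was the highest of all 6 bulk libraries for 67 members, for 0 genes of PtXaAlbH.16G095400 and for 1 gene of PtXaAlbH.10G108800. The difference between the lists was not tested.

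The members' IDs spread over 19 number prefixes, with between 1 and 15 members each. In the sorted order of all gene IDs, 10 pairs of neighbouring members lay within 5 places of each other, among them PtXaAlbH.03G045600, PtXaAlbH.03G045700 and PtXaAlbH.03G045800 in a row, and PtXaAlbH.07G110800 next to PtXaAlbH.07G110900. Whether such neighbours are near-identical copies that share reads is not known from the files used here, so their values are uncertain as separate measurements.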

How the data were processed

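Nuclei and bulk RNA of poplar stems were measured under drought and in controls. Per the labels' protocols, nuclei were processed with a Singleron GEXSCOPE chip and bulk libraries with a stranded TruSeq kit. Both kinds of file hold counts deposited by the authors, UMI counts per gene and barcode for nuclei and read counts per gene for bulk. HISAT2 is named, per the submitters' processing notes; how reads were counted, on which strand, against which build and with which rule for barcodes is not given in the sources used here. The members and gene lists were chosen with earlier results of these data known.

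Samples were grouped by their labels. The 25 features with ribosomal or transfer RNA names, 0.0574% to 0.478% of UMIs in a nuclei library, were left out. No doublet caller was run, and doublets were not removed. UMIs were summed per library over all barcodes, over anchor-positive nuclei and over anchor-negative nuclei, the last 2 with at least 200 genes. Each comparison was fitted across all genes passing filterByExpr with edgeR 4.0.16 in R 4.3.3 (TMM, quasi-likelihood test, FDR 0.05), using only its own groups. DESeq2 1.42.0 and limma 3.58.1 (voom) were alternatives. CPM values printed are counts over library totals. The fits were tested on simulated data, with 200 genes changed 4-fold in each comparison. Of the changed genes that passed the filter on low counts again, 96.5% were recovered in bulk (26448 genes simulated) and 89.1% in whole nuclei libraries (20768 genes). The share was 53.2% in anchor-positive nuclei (3314 genes) and 89.6% in anchor-negative nuclei (20465 genes). Changed genes that the filter removed are not in these shares, so recovery out of all 200 was lower. False calls were 9 in bulk, 4 in whole nuclei libraries, 3 in anchor-positive and 10 in anchor-negative nuclei. No simulated library stood apart as bulk Drought 2 does, and changes below 4-fold were not simulated. The shares therefore do not give the recovery of smaller changes in the real libraries. Replicates of a group differed beyond counting noise, with a chi-square per degree of freedom of at least 10.1 in bulk and 4.30 in nuclei. Members named are the 10 of highest ratio, the largest called rises and falls (up to 2 each per comparison, mean of at least 1 CPM), the 3 most abundant per assay and those at the rule's edge; others are said to be chosen after their values were seen. Alternatives covered normalization, the filter, the tool, a replicate block, depth, the minimum genes and anchor UMIs, and each library left out.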

Additional observations from a re-analysis of the deposited data

Results flagged for a closer look

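For 3 members the drought effect was called different between the assays, by the test of the difference in 1 edgeR model. Of all 27746 genes tested, 7.21% were called, so the members do not stand out by this count. These calls depend on single libraries. The values are log2 fold changes in nuclei minus those in bulk. For PtXaAlbH.06G110100 the difference was -1.85 (adjusted p 0.0184 with edgeR), with a rise in bulk in every drought library, and it was called in 7 of 10 fits with 1 library left out. For PtXaAlbH.02G152800 it was 2.65 (adjusted p 0.0430 with edgeR), with a fall in bulk and none called in nuclei, and it was called in 3 of 10 such fits. For PtXaAlbH.16G034600 it was -0.95 (adjusted p 0.0390 with edgeR), with a fall called in nuclei only, and it was called in 2 of 10 such fits. The assays also differ in the RNA they hold. The labels name no internode for bulk, so the stem piece may differ too. Neither can be told apart from the assay.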

How the results depend on the processing

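The main counts of members called (edgeR) were 39 in bulk, 27 in whole nuclei libraries, 0 in anchor-positive nuclei, 14 in anchor-negative nuclei and 3 for the difference between assays. With 1 library left out, which leaves nuclei groups of 1 library whose spread is assumed to be that of the other group, they ranged from 25 to 66, from 15 to 49, from 0 to 6, from 4 to 22 and from 0 to 45, in that order of comparisons. With no filter on low counts they were 41 in whole nuclei libraries, 3 in anchor-positive and 33 in anchor-negative nuclei, and with library size alone the difference was called for 9 members. The cause of these shifts was not tested. Shares of all genes called are given here only for the main fits and the fits without bulk Drought 2. The other counts therefore do not set members against all genes. Without TMM the median of all genes in bulk moved to -0.12, with 24 members higher and 9 lower. With 1 bulk library left out, the bulk log2 fold change ran from -0.57 to 0.32 for PtXaAlbH.06G143500 and from -0.36 to 0.45 for PtXaAlbH.05G062300, and was below 0 in both without Drought 2 alone. Deviations of same-numbered drought and control libraries were weakly correlated in bulk (correlation -0.00183, -0.00926 and 0.0303). The correlation was -0.102 in nuclei, 0.0654 in anchor-positive and -0.0925 in anchor-negative nuclei. With 2 against 2 libraries, the crossed pairs give the same value with the sign reversed. This check cannot settle whether the numbers pair samples, and the main fits left them unpaired. With the number as a replicate block the counts were 30 in bulk, 35 in nuclei, 6 in anchor-positive nuclei, 15 in anchor-negative nuclei and 1 for the difference. The crossed pairing of nuclei libraries, chosen after seeing the data, gave 44. Also chosen after seeing the data were the fits of anchor-positive nuclei with at least 2 anchor UMIs and without nuclei holding another anchor, both with 0 members called. Of the 100 members, 95 were shared with the list made with 20 CPM in the ratio, 98 with 100 CPM, 73 with at least 2 anchor UMIs, 91 with at least 300 genes per barcode, 98 when the top 100 was taken first, and 73 to 86 with 1 library left out. Precision in anchor-positive nuclei is limited by their number, with 32 in Control 1.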
